A study of Saccharomyces cerevisiae with 26 samples.

Results

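Budding yeast can make all of its sulfur amino acids from inorganic sulfate. Permeases bring sulfate into the cell, a chain of enzymes activates it and reduces it to sulfide, and sulfide is joined to a carbon skeleton derived from homoserine to give homocysteine, from which methionine, S-adenosylmethionine and cysteine are made. Most of these enzymes are under the transcriptional activator Met4, which does not bind DNA itself and is brought to promoters by Cbf1, Met28 and the zinc-finger proteins Met31 and Met32. The ubiquitin ligase subunit Met30 holds Met4 in check when methionine and cysteine are plentiful. The 36 genes described here are the uptake, assimilation, methionine, S-adenosylmethionine and cysteine genes and their regulators, chosen by gene symbol. All 36 had a probe set, exactly 1 each, among the 9275 probe sets of the array other than controls, and all 36 were among the 7877 that passed a filter on low values. MHT1 and MMP1 are direct neighbours in the reference annotation and JLP1 lies close to them.

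The data are 26 Affymetrix YG_S98 expression arrays in 13 groups of 2, and the strain is not given in the sources used here. In a first set of 16 arrays, cells grown in rich glucose medium (YPD) or in acetate medium (YPA, potassium acetate in place of glucose) were sampled, as were cells 4 h after induction of sporulation (sporulation 4 h, whose label is shorter than the others and names no sporulation medium). Other cells were filtered 4 h after induction, resuspended and taken 1 h later in plain medium (filtered 1 h), or 1 h and 4 h later in medium with 0.4% dimethyl sulfoxide (DMSO 1 h and DMSO 4 h), or 1 h and 4 h later in medium with benomyl, a microtubule-depolymerizing drug added from a 30 mg/ml stock in the same solvent (benomyl 1 h and benomyl 4 h). The label of the benomyl groups gives 0.4% as the final concentration of the added solution. In a second set of 10 arrays, cells were taken 4 h after induction (second-set sporulation 4 h), 1 h and 4 h after filtration and resuspension (second-set control 1 h and 4 h), or 1 h and 4 h after resuspension in chilled medium with DMSO at 10 °C (cold 1 h and cold 4 h). Apart from YPD and YPA, for which the labels give only the medium, every culture had spent 24 h in YPD and then a night in YPA at 30 °C. All sporulating groups other than the first set's 4 h sample were then put into 0.3% potassium acetate at room temperature. The media with DMSO alone or with benomyl in the first set were prepared hot and left to cool. The controls of the cold groups are not described as holding DMSO, and no temperature after filtration is given for them. The labels do not say that the 2 arrays of a group came from separate cultures, so the p-values measure only the spread between arrays, which may be technical.

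Levels are log2 signals after quantile normalization between arrays, and they were compared only within a probe set. The verbs rose and fell are used of genes whose Benjamini-Hochberg adjusted p in a limma model over all 7877 probe sets was under 0.05, and such genes are described as called. Where pairs of array values are set against each other, the control or earlier group comes first, with replicate 1 before replicate 2. Called genes were named in part because their arrays did not overlap between groups. A lack of overlap is therefore no separate check on a call, and its share over all probe sets is not given here. Changes are log2 fold changes ± the model's standard error with n = 2 arrays per group. Levels are averages over whole cultures, in which fewer cells of a type and less RNA per cell cannot be told apart. Of the 36 genes, 5 had a group mean below the filter's level of 5.44. These were MET16 and MET32 in YPA, MHT1 in YPA and both second-set controls, MMP1 in DMSO 1 h, DMSO 4 h and second-set control 4 h, and MET31 in second-set sporulation 4 h and control 1 h, so changes from these groups start from low signals. Meiotic genes were low in growth media and high in sporulating cells. The mean log2 signal of 10 meiotic markers (IME1, IME2, SPO11, DMC1, HOP1, ZIP1, NDT80, SPS1, SPR3 and SPS4) was 5.34 and 5.41 on the YPD arrays, 8.42 and 8.47 at sporulation 4 h and 10.10 and 10.10 at DMSO 4 h. Replicate arrays correlated at Pearson r of 0.98 or more across probe sets in 11 groups, and at 0.942 in benomyl 1 h and 0.963 in second-set control 1 h.

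The 36 genes varied widely. The difference between a gene's highest and lowest group mean had a median of 3.26 log2 units, against 1.46 for all 7877 probe sets, and it reached at least 2 log2 units in 28 of 36 genes (77.8%, against 29.0% of all probe sets). Benomyl 1 h held the highest group mean of 19 genes, and YPA and YPD held the lowest of 13 and 8. The same counts over all probe sets are not given here. The widest ranges belonged to JLP1 (5.37), SUL1 (5.34), SUL2 (5.22) and MET16 (5.11). The narrowest belonged to CBF1 (0.76), which encodes a helix-loop-helix DNA-binding protein with other duties at centromeres.

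**Figure D1:**
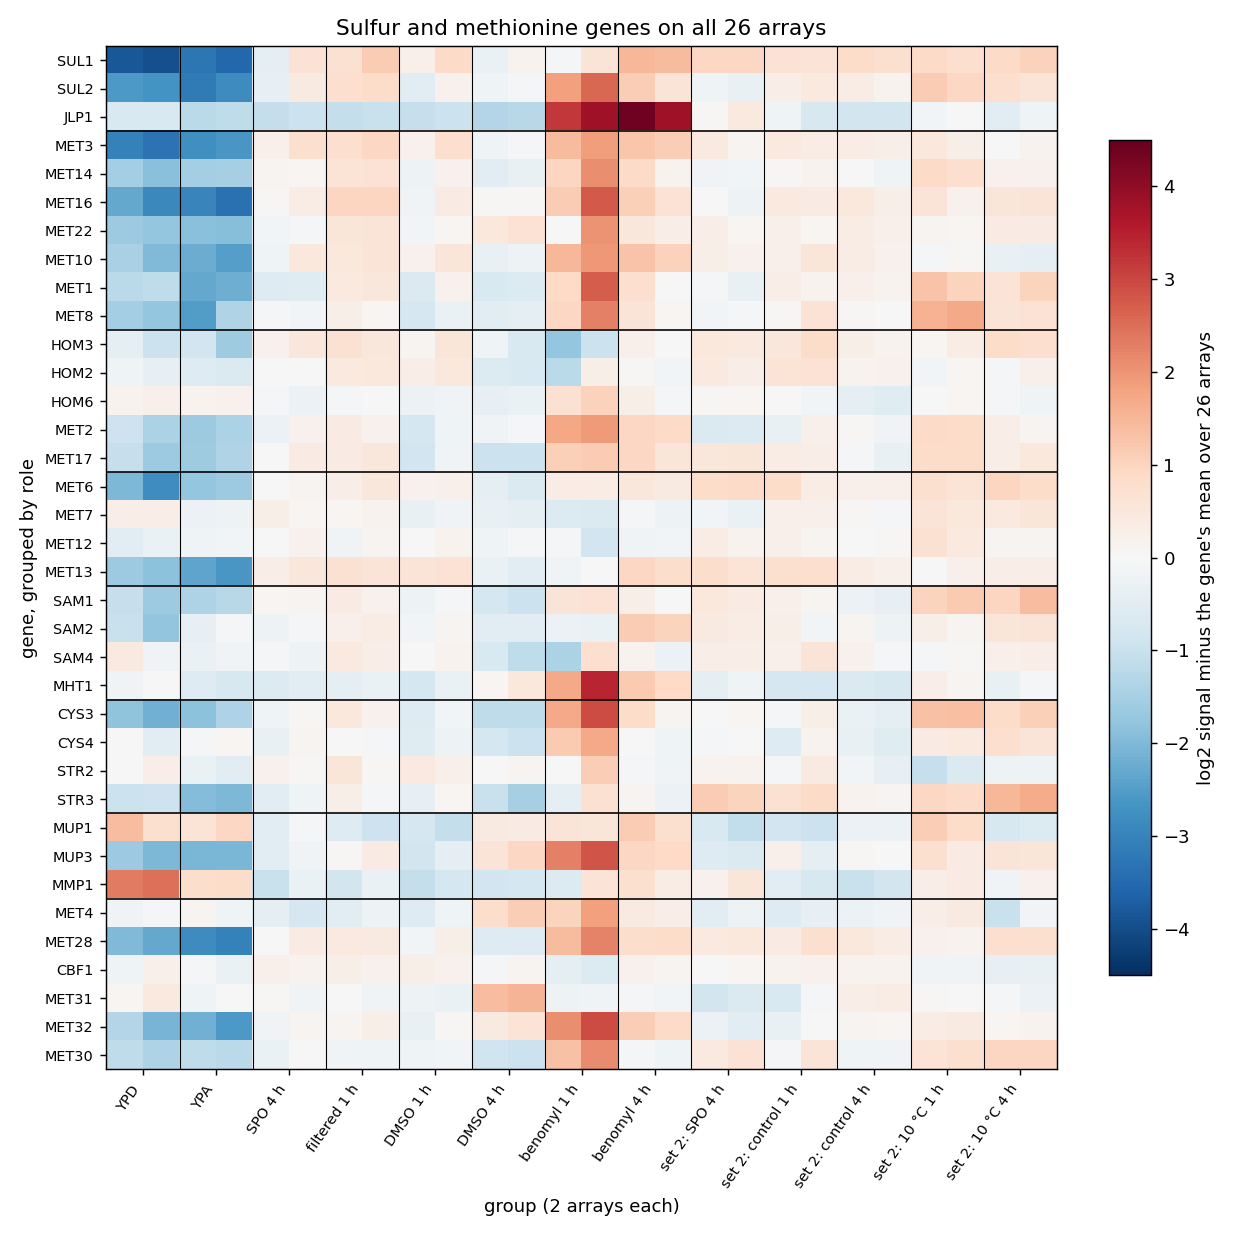
Each row is a gene, grouped by role, and each column an array, with 2 arrays per group. Colour gives the log2 signal minus that gene's mean over the 26 arrays. The sulfate genes are low (blue) in YPD and YPA and high (red) in benomyl 1 h, where the second array is higher than the first for most genes, and JLP1 is high only in the benomyl groups.

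In acetate medium compared with glucose medium, 2 of the 36 genes rose and 7 fell, with a median change of -0.32, while 15.7% and 17.7% of all probe sets rose and fell. The S-adenosylmethionine synthetase gene SAM2 rose, from 8.99 and 8.20 on the YPD arrays to 9.59 and 9.93 on the YPA arrays (1.17 ± 0.20), and so did MET6 (0.74 ± 0.18), for methionine synthase. MMP1, which encodes the S-methylmethionine permease, fell from 8.56 and 8.73 to 7.01 and 7.07 (-1.61 ± 0.30, limma adjusted p = 0.000521). The arrays of the groups did not overlap for either gene. Also lower in acetate were MET13 (-0.77 ± 0.12), for a methylenetetrahydrofolate reductase, STR3 (-1.03 ± 0.25), for cystathionine beta-lyase, MET28 (-0.80 ± 0.20), MET7 (-0.54 ± 0.11), for folylpolyglutamate synthetase, MET10 (-0.64 ± 0.21) and MET1 (-1.07 ± 0.38). In the list of glutathione and sulfur transport genes 1 of 12 rose and 5 fell, among them OPT1 (-2.92 ± 0.25), an oligopeptide and glutathione transporter, SOA1 (-1.76 ± 0.18), a sulfite and sulfonate transporter, and YCT1 (-1.83 ± 0.24), a cysteine transporter. In a list of 7 other sulfur pathway genes 1 rose and 2 fell, one of them SAM3 (-1.34 ± 0.16), the S-adenosylmethionine permease. Both YPD arrays came from a scan day that held no other group, and medium and day cannot be told apart. Without replicate 1 of YPD the change of MET6 was 1.12 and without replicate 2 it was 0.36 and no longer called, and that of SAM2 was 0.78. MET10 (-0.36) and MET28 (-0.65) were not called without replicate 1 of YPD, nor were they without replicate 2 of YPA (-0.51 and -0.71). MET1 lost its call whichever of the 4 arrays was left out (from -1.13 to -1.02).

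At sporulation 4 h most of the sulfate route stood above its level in acetate. Of 36 genes 23 rose and 3 fell, against 28.6% and 29.5% of all probe sets, with a median of 1.52 against -0.04. Within scan days 1 and 2 the median was 1.42 and 1.42, and all 26 called genes kept their direction on both days. The calls were made from the same arrays, which largely fixes that count. With values as deposited, 26 rose and 3 fell.

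The sulfate permease gene SUL1 had log2 signals of 6.87 and 6.60 in YPA and 9.71 and 10.79 at sporulation 4 h, a rise of 3.52 ± 0.28 (limma adjusted p = 6.18e-09). Its partner SUL2 went from 6.49 and 6.83 to 9.28 and 10.06 (3.01 ± 0.26). In both, the sporulation arrays lay well above every YPD and YPA array, while replicate 2 of sporulation 4 h exceeded replicate 1. JLP1, which encodes a dioxygenase that releases sulfite from sulfonates, stayed near its lowest level, with 5.60 and 5.68 against 5.76 and 5.85 (0.17 ± 0.21, limma adjusted p = 0.503).

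All 7 genes of sulfate activation and reduction rose. MET3, for the ATP sulfurylase that activates sulfate, went from 7.35 and 7.49 to 10.34 and 10.84 (3.17 ± 0.20). MET16, for the reductase of activated sulfate, went from 5.17 and 4.79, below the filter's level of 5.44, to 8.20 and 8.47 (3.35 ± 0.34). The groups did not overlap in either gene. The others were MET10 (2.50 ± 0.21), a sulfite reductase subunit, MET8 (1.85 ± 0.34) and MET1 (1.70 ± 0.38), which make the siroheme cofactor of sulfite reductase, MET22 (1.81 ± 0.35), a phosphatase that clears a by-product of the reduction, and MET14 (1.61 ± 0.26), the kinase of the second activation step. MET5, the other sulfite reductase subunit gene, is not among the 36 and rose by a similar size (2.75 ± 0.18).

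Further down the route, MET2 and MET17, which make O-acetylhomoserine and join sulfide to it, rose by 1.50 ± 0.20 and 1.66 ± 0.21. HOM3, for aspartate kinase at the head of the homoserine branch, rose by 1.59 ± 0.26, HOM2 had 0.62 ± 0.27 without a call, and HOM6 fell by a small amount (-0.34 ± 0.13). As deposited the fall was -0.81, under median centring it was -1.02, and it was not called without replicate 2 of sporulation 4 h (-0.22) or without either YPA array (-0.35 and -0.33). Nor was it called with scan day as a block (limma adjusted p = 0.0955). MET13 rose from 8.57 and 8.34 to 11.26 and 11.48 (2.92 ± 0.12, limma adjusted p = 2.6e-12), while MET12, its paralog, had 0.28 ± 0.18 and was not called. MET6 rose from 9.14 and 9.22 to 10.84 and 10.99 (1.73 ± 0.18). SAM1 rose (1.43 ± 0.17) and SAM2, which encodes a near-identical enzyme, had 0.07 ± 0.20 without a call. Probe sets of such close paralogs can pick up each other's transcript, which was not tested. CYS3, for cystathionine gamma-lyase, rose (1.54 ± 0.29) as did STR3 (1.63 ± 0.25), whereas CYS4, for cystathionine beta-synthase, had -0.09 ± 0.22 and STR2, for cystathionine gamma-synthase, 0.52 ± 0.26. The permease genes split: MUP3, for a low-affinity methionine permease, rose (1.74 ± 0.22), and the high-affinity permease gene MUP1 (-1.06 ± 0.21) and MMP1 (-1.45 ± 0.30) fell.

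Among the regulators, MET28 rose from 6.01 and 5.81 to 8.85 and 9.21 (3.12 ± 0.20) and MET32 from 5.43 and 5.01 to 7.43 and 7.69 (2.34 ± 0.25), with no overlap between groups. Both YPA values of MET32 lay below the filter's level. MET30 (1.03 ± 0.21) and CBF1 (0.39 ± 0.13) rose too. CBF1 was 0.65 with values as deposited and lost its call without replicate 1 of sporulation 4 h (0.34) or replicate 2 of YPA (0.28). MET7, which rose by 0.41 ± 0.11, was 0.69 with values as deposited and was not called without replicate 1 of sporulation 4 h (0.33). MET4 (-0.57 ± 0.26) and MET31 (0.02 ± 0.17) were not called. Genes for the synthesis of other amino acids also rose in this step (28 of 42 rose and 1 fell, median 0.88), led by LYS21 (2.35 ± 0.15), HIS1 (2.45 ± 0.20) and ILV6 (2.16 ± 0.18). In the thioredoxin system, which supplies electrons to the reductase Met16, 1 of 3 genes fell, TRX2 (-0.79 ± 0.11), and none rose.

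Filtration and resuspension without drug or cold was followed by few calls. The step also holds 1 h of further time in culture, so filtration and elapsed time cannot be told apart. In the first set none of 36 was called 1 h after filtration against sporulation 4 h (2.16% and 0.927% of all probe sets rose and fell), with limma unadjusted p under 0.05 for 8 genes, although the median was 0.25 and the changes ran from -0.48 to 1.04. Within scan days 1 and 2 the median was 0.37 and 0.15. Without replicate 2 of sporulation 4 h, 2 genes were called. With array weights 7 were called and with only the arrays of the 2 groups 6, all higher. In the second set the same step raised 1 of 36 genes, MET7 (0.43 ± 0.11), against 0.686% and 1.69% of all probe sets, with a median of 0.04. That call was lost when any of the 4 arrays was left out, with values from 0.33 to 0.53, and JLP1 was called lower without replicate 1 of the control (-0.96) and MUP3 higher without its replicate 2 (0.86).

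DMSO for 1 h, against filtered cells without it, gave 1 call, a fall of the sulfide-incorporating enzyme gene MET17 from 11.75 and 11.91 to 10.52 and 11.23 (-0.95 ± 0.21, limma adjusted p = 0.0461), while 0.355% and 0.216% of all probe sets rose and fell. The change without replicate 1 of DMSO 1 h was -0.60, and the call was lost there and without either filtered array (-1.03 and -0.87). It was also lost with scan day as a block (limma adjusted p = 0.200). Over the 36 genes the median was -0.32, with -0.46 and -0.16 within scan days 1 and 2.

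Between DMSO 1 h and DMSO 4 h, when the sporulation kinase gene SPS1 rose by 3.84 ± 0.27, 5 of 36 genes rose and 11 fell, against 17.8% and 25.8% of all probe sets, whose median moved by -0.15. The median of the 36 genes was -0.34, and -0.25 and -0.43 within the scan days. The balance depended on the scaling: 7 rose and 6 fell with values as deposited, and 6 rose and 8 fell with median centring. Among the falls with the smallest p were those of MET13 (-0.99 ± 0.12), STR3 (-1.12 ± 0.25), SAM1 (-0.75 ± 0.17), MET6 (-0.76 ± 0.18) and HOM2 (-1.05 ± 0.27). MET10 (-0.66 ± 0.21), CYS3 (-0.79 ± 0.29) and HOM3 (-0.78 ± 0.26) fell too, and all 3 lost their calls with values as deposited (-0.39, -0.52 and -0.56), without replicate 2 of DMSO 1 h (-0.47, -0.55 and -0.58) and without replicate 2 of DMSO 4 h (-0.71, -0.78 and -0.53). As deposited the fall of MET6 was -0.50. The genes that rose were methionine permease genes and 3 regulator genes. MET31 rose from 5.59 and 5.51 to 7.21 and 7.36 (1.73 ± 0.17, limma adjusted p = 1.35e-07). MUP3 rose from 7.37 and 7.79 to 8.79 and 9.13 (1.38 ± 0.22) and MUP1 from 7.49 and 7.17 to 8.66 and 8.60 (1.30 ± 0.21). MET4 itself rose from 6.65 and 7.02 to 8.02 and 8.32 (1.34 ± 0.26). In these 4 genes both 4 h arrays lay above both 1 h arrays. MET32 rose by 0.64 ± 0.25 (limma adjusted p = 0.0495), a call that was lost without either 4 h array or without replicate 1 of DMSO 1 h (0.44). With scan day as a block, HOM3, CYS3 and MET32 were not called (limma adjusted p = 0.0677, 0.0940 and 0.0658), and SAM2 (-0.49 ± 0.20) was called lower (limma adjusted p = 0.0188). MET30 (-0.77 ± 0.21) and MET28 (-0.65 ± 0.20) fell. Without replicate 2 of DMSO 1 h, MET3 (-0.62 in the full fit) stood at -0.33 and MET28 at -0.46, neither called, and 6 genes rose and 6 fell in all. MET28 was not called either without replicate 1 or 2 of DMSO 4 h, nor was MET3 without replicate 1 of it (-0.57). Genes for other amino acids fell alongside (24 of 42 fell and 2 rose, median -0.64).

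The undrugged second-set course from 1 h to 4 h gave 2 calls. MET31 rose from 5.14 and 5.72 to 6.10 and 6.16 (0.70 ± 0.17) and MET13 fell (-0.46 ± 0.12), so 1 of 36 rose and 1 fell against 5.47% and 2.64% of all probe sets. The MET31 call was lost without any of 3 arrays, replicate 1 of the 1 h control (0.41) and both 4 h arrays (0.73 and 0.67). The MET13 call was lost without any 1 of the 4 arrays, with values from -0.51 to -0.42. MET4 (0.24 ± 0.26), MUP1 (0.64 ± 0.21) and MUP3 (0.13 ± 0.22) were not called.

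**Figure D2:**
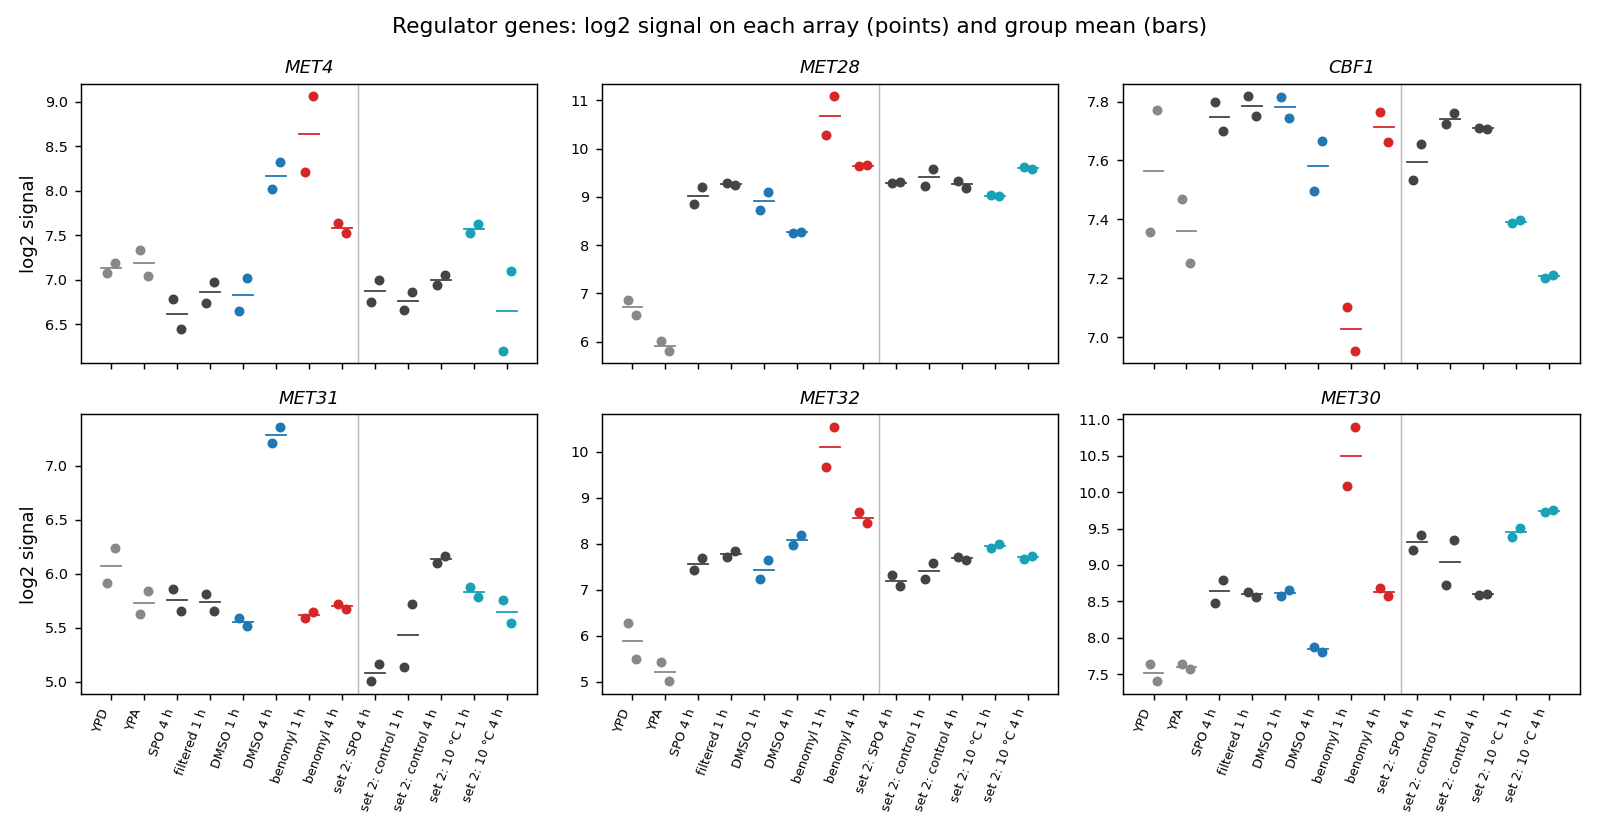
Each panel is a regulator gene. Points are the log2 signals of the 2 arrays of a group, bars their mean, and the vertical line parts the first set from the second. MET31 stands highest in DMSO 4 h, MET32, MET28, MET4 and MET30 in benomyl 1 h, and CBF1 is lowest in benomyl 1 h.

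Benomyl for 1 h raised every enzyme gene of sulfate activation and reduction, the sulfate permease gene SUL2, JLP1, the 3 genes for methionine and S-methylmethionine permeases and 4 of 6 regulators. Among these, MET22 and MMP1 rested on replicate 2 of benomyl 1 h, and without it their changes were 0.02 and 0.32. Against DMSO 1 h, 23 of 36 genes rose and 6 fell (25.6% and 26.7% of all probe sets did), with a median of 1.27 against 0.01. Within scan days 1 and 2 the median was 1.20 and 1.41, and all 29 called genes kept their direction on both days. The calls were made from the same arrays, which largely fixes that count. The benomyl 1 h arrays stood apart from each other: 30 of 36 genes were higher on replicate 2 than on replicate 1, by a median of 0.70 over the 36 genes, while the median over all probe sets was -0.01. On replicate 1 alone, 22 of the 23 genes that rose lay above both DMSO arrays. That array and the DMSO arrays took part in the calls, so this count is not an independent check. Without replicate 1 of benomyl, 26 genes rose and 5 fell, without replicate 2, 21 rose and 6 fell, and in a fit of only these 4 arrays 16 rose and 1 fell.

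JLP1 had the largest change of the 36 genes. Its log2 signal was 5.78 and 5.86 in DMSO 1 h and 10.01 and 10.61 in benomyl 1 h, a rise of 4.49 ± 0.21 (22.5-fold, limma adjusted p = 6.81e-12), and on the 22 arrays without benomyl it lay between 5.50 and 7.27. SUL2 rose from 9.18 and 9.85 to 11.51 and 12.24 (2.36 ± 0.26), but SUL1 had 10.37 and 10.98 against 10.04 and 10.72, which overlap (-0.29 ± 0.28, limma adjusted p = 0.388). MHT1 and MMP1, which lie close to JLP1 with 3 and 2 genes between, rose too. MHT1, for an enzyme that methylates homocysteine from S-methylmethionine, went from 5.25 and 5.74 to 7.73 and 9.44 (3.09 ± 0.33). MMP1 went from 5.17 and 5.46 to 5.63 and 6.86 (0.93 ± 0.30), with most of the rise on replicate 2, and stood at 0.32 without that array and at 0.79 without replicate 1 of DMSO 1 h, not called in either case. Against filtered cells without DMSO it was 0.59 and not called.

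All 7 activation and reduction genes rose under benomyl, as they had on entry into sporulation. MET3 had 10.30 and 10.89 in DMSO and 11.52 and 12.01 in benomyl (1.17 ± 0.20), and MET16 7.97 and 8.52 against 9.28 and 10.90 (1.85 ± 0.34). The siroheme genes MET8 (2.12 ± 0.34) and MET1 (2.04 ± 0.38) rose, as did MET14 (1.54 ± 0.26) and MET10 (1.36 ± 0.21). The sizes of several rested in part on replicate 2 of benomyl 1 h. Without it MET16 stood at 1.04, MET1 at 1.12 and MET14 at 0.98, all called. MET22 rose by 1.02 ± 0.35, but its arrays overlapped, and it stood at 2.02 without replicate 1 of benomyl and at 0.02 without replicate 2. It was also not called without replicate 1 of DMSO 1 h (0.91) or with scan day as a block (limma adjusted p = 0.0654). Against filtered cells without DMSO, MET14 (0.88), MET16 (1.00) and MET1 (1.33) rose by less and stayed called, and MET22 (0.43) was not called. MET5 rose as well (0.47 ± 0.18, limma adjusted p = 0.0363).

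The carbon-skeleton branch split by position. The first enzymes of the homoserine branch fell: HOM3 went from 8.91 and 9.32 to 7.02 and 7.80 (-1.70 ± 0.26, limma adjusted p = 2.85e-05), with both benomyl arrays below both DMSO arrays. HOM2, for aspartate semialdehyde dehydrogenase, fell (-0.86 ± 0.27) and stood at -0.12 (not called) without replicate 1 of benomyl and at -1.59 without replicate 2, and it lost its call without replicate 2 of DMSO 1 h (-0.76). HOM6, for homoserine dehydrogenase, rose from 10.99 and 11.11 to 11.97 and 12.29 (1.08 ± 0.13). MET2 rose from 8.67 and 9.26 to 11.19 and 11.35 (2.31 ± 0.20) and MET17 from 10.52 and 11.23 to 12.48 and 12.55 (1.64 ± 0.21), and no arrays overlapped in these 3 genes. Against filtered cells without DMSO the rise of MET17 was 0.69 and that of SUL2 1.43, both called. The threonine branch, which uses homoserine as well, fell with the first HOM enzymes, with -1.40 ± 0.19 for THR4 and -1.33 ± 0.28 for THR1.

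Of the methyl group supply, MET13 (-0.71 ± 0.12), MET12 (-0.54 ± 0.18) and MET7 (-0.38 ± 0.11) fell, and methionine synthase gene MET6 had 0.11 ± 0.18 (limma adjusted p = 0.633). MET12 was -0.93 without replicate 1 of benomyl and -0.15 (not called) without replicate 2, and MET12 (-0.44) and MET7 (-0.30) lost their calls without replicate 2 of DMSO 1 h. MET12 was not called with scan day as a block either (limma adjusted p = 0.0626). Against filtered cells without DMSO the fall of MET7 was -0.77. Other folate one-carbon genes fell too (7 of 12 fell and 1 rose, median -0.68), with the glycine cleavage genes GCV2 (-2.06 ± 0.17), GCV3 (-1.29 ± 0.12) and GCV1 (-1.65 ± 0.20) in front. SAM1 rose (0.75 ± 0.17) and was 0.35, not called, against the control without DMSO, while SAM2 (-0.29 ± 0.20) and SAM4 (-0.43 ± 0.41) were not called. SAM4, for a homocysteine methyltransferase that uses S-adenosylmethionine, had 5.80 and 7.99 in benomyl 1 h, the widest pair of arrays among the 36 genes, on either side of the DMSO arrays (7.23 and 7.41), and without replicate 1 of benomyl it was called higher (0.67). SAH1, which breaks down S-adenosylhomocysteine, fell (-2.04 ± 0.14).

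In transsulfuration, the pair of enzymes that turns homocysteine into cysteine rose. CYS3 went from 9.52 and 10.00 to 11.82 and 13.03 (2.67 ± 0.29) and CYS4 from 8.77 and 9.11 to 10.51 and 11.03 (1.83 ± 0.22), without overlap. The pair for the opposite direction was not called, with 0.21 ± 0.26 for STR2 and 0.26 ± 0.25 for STR3. Glutathione, which is made from cysteine, is another outlet of the route. In the list of glutathione and sulfur transport genes 8 of 12 rose and 3 fell (median 1.39), including GSH1 (2.11 ± 0.20), for the first step of glutathione synthesis, GLR1 (3.17 ± 0.11), glutathione reductase, and the cysteine transporter gene YCT1 (2.44 ± 0.24). All 3 permease genes for methionine or S-methylmethionine rose, MUP3 from 7.37 and 7.79 to 10.46 and 11.04 (3.17 ± 0.22, limma adjusted p = 1.54e-09) and MUP1 from 7.49 and 7.17 to 8.84 and 8.81 (1.49 ± 0.21), beside MMP1. Most of the rise of MMP1 lay on replicate 2 of benomyl 1 h.

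Of 6 regulator genes 4 rose and 1 fell. MET32 went from 7.24 and 7.63 to 9.66 and 10.53 (2.66 ± 0.25, limma adjusted p = 8.97e-08), MET30 from 8.57 and 8.66 to 10.09 and 10.89 (1.88 ± 0.21) and MET28 from 8.72 and 9.10 to 10.28 and 11.09 (1.77 ± 0.20). MET4 went from 6.65 and 7.02 to 8.21 and 9.06 (1.80 ± 0.26). In all 4 genes both benomyl arrays lay above both DMSO arrays. CBF1 fell from 7.82 and 7.75 to 7.10 and 6.95 (-0.75 ± 0.13). MET31, the close relative of MET32, had 5.59 and 5.51 against 5.59 and 5.64 (0.07 ± 0.17, limma adjusted p = 0.763). Of the ubiquitin ligase core that works with Met30, CDC34 (1.46 ± 0.14), the conjugating enzyme, and CDC53 (0.40 ± 0.14) rose and SKP1 (-0.54 ± 0.13) fell.

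Other amino acid synthesis went the other way from the sulfate genes at 1 h: 25 of 42 genes fell and 5 rose (median -0.73), with ARG1 (-3.14 ± 0.20), HIS1 (-2.98 ± 0.20) and ILV5 (-2.77 ± 0.15) among them. Meiotic genes were lower in the same cultures. All 10 meiotic markers fell (median -1.78), with mean log2 signals of 6.99 and 7.90 on the benomyl arrays and 9.15 and 9.56 on the DMSO arrays, and the part of this in the sulfur gene changes was not tested. Of 9 haploid mating markers tested, 2 rose and 1 fell, and the mean over all 11 measured was 6.12 and 6.18 in benomyl and 6.06 and 6.07 in DMSO.

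**Figure D3:**
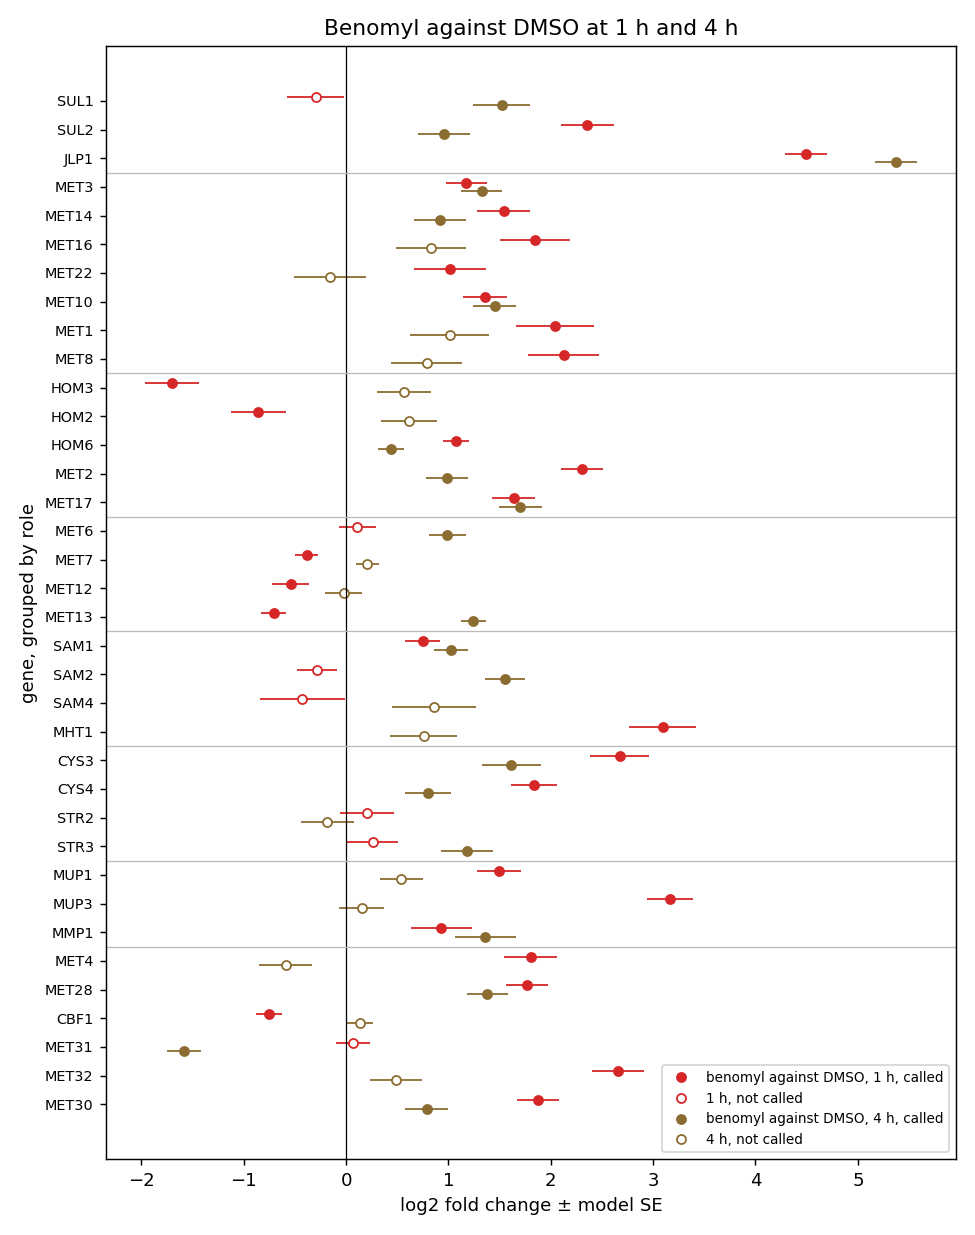
Points are log2 fold changes of benomyl against DMSO after 1 h (red) and 4 h (brown) with the model's standard error, and filled points were called. JLP1 lies farthest right at both times, HOM3 is the farthest left at 1 h and MET31 at 4 h, and MET13 and SAM2 lie above 0 at 4 h but not at 1 h.

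After 4 h in benomyl JLP1, MET17 and CYS3 were still higher than in DMSO, and MET13, MET6 and SAM2 were now higher too. In all 19 of 36 were higher and 1 lower, against 16.6% and 15.9% of all probe sets, with a median of 0.84 against 0.08, and of 1.04 and 0.66 within the scan days. JLP1 remained high, with 5.50 and 5.57 in DMSO and 11.20 and 10.61 in benomyl (5.37 ± 0.21, 41.4-fold). MET17 had 10.44 and 10.42 against 12.33 and 11.92 (1.70 ± 0.21) and CYS3 8.98 and 8.96 against 10.93 and 10.24 (1.62 ± 0.29), again without overlap. Of the 23 genes higher at 1 h, 14 (60.9%) were among the 19 higher at 4 h (73.7% of these). The same overlap over all probe sets is not given here, so these shares do not set the 36 genes apart. SUL1, which was not called at 1 h, had 9.85 and 10.28 against 11.62 and 11.55 (1.52 ± 0.28). MET13 (1.24 ± 0.12), SAM2 (1.55 ± 0.20), MET6 (0.99 ± 0.18) and STR3 (1.18 ± 0.25) were higher as well, and none of these 4 was called higher at 1 h. MET12 (-0.02 ± 0.18) and MET7 (0.21 ± 0.11) were not called. MET6 was 0.65 with values as deposited.

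Of the activation and reduction genes MET3 (1.33 ± 0.20), MET10 (1.45 ± 0.21) and MET14 (0.92 ± 0.26) were higher at 4 h, and the other 4 were not called (from -0.15 for MET22 to 1.01 for MET1). MET14, SUL2 (0.96) and HOM6 (0.44) lost their calls without replicate 1 of benomyl 4 h (0.56, 0.70 and 0.26), without replicate 1 of DMSO 4 h (0.84, 0.88 and 0.39), as deposited (0.63, 0.62 and 0.18) or under median centring (0.68, 0.67 and 0.23). CYS4 (0.80 ± 0.22) and MET30 (0.79 ± 0.21) did so without replicate 1 of benomyl (0.71 and 0.73) or replicate 2 of DMSO (0.71 and 0.75). With scan day as a block MET14 and HOM6 were not called (limma adjusted p = 0.0513 and 0.0662). MMP1 (1.36 ± 0.30), SAM1 (1.02 ± 0.17), MET2 (0.99 ± 0.20) and MET28 (1.38 ± 0.20) were higher too.

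MET31 was the gene that was lower, with 7.21 and 7.36 in DMSO 4 h and 5.72 and 5.67 in benomyl 4 h (-1.59 ± 0.17, limma adjusted p = 1.08e-06). The benomyl arrays stayed at the level of 1 h, while the DMSO arrays held the highest MET31 signals of the study. MUP3 (0.15 ± 0.22), MUP1 (0.54 ± 0.21), MET4 (-0.59 ± 0.26) and MET32 (0.49 ± 0.25) were not called at 4 h, and each of these had risen in DMSO between 1 h and 4 h. The DMSO course and the benomyl comparisons share their DMSO arrays. Other amino acid genes were higher in benomyl at 4 h in 11 of 42 and lower in 2 (median 0.37), and folate one-carbon genes in 7 of 12 and lower in none. Of the meiotic markers 1 was higher and 4 were lower, with mean signals of 9.66 and 9.84 in benomyl and 10.10 and 10.10 in DMSO, whose part was not tested.

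Tested as a difference, the benomyl effect changed between 1 h and 4 h in 23 of 36 genes, larger (more positive) at 4 h in 10 and smaller in 13, against 24.2% and 21.5% of all probe sets. MUP3 (-3.01 ± 0.31), MET4 (-2.39 ± 0.37), MHT1 (-2.33 ± 0.47) and MET32 (-2.17 ± 0.36) had the most negative differences. HOM3 (2.26 ± 0.37), MET13 (1.95 ± 0.17), SAM2 (1.84 ± 0.28) and SUL1 (1.82 ± 0.39) had the most positive ones. Without replicate 2 of benomyl 1 h, 12 were larger and 10 smaller, and without replicate 2 of benomyl 4 h, 10 were larger and 9 smaller. With scan day as a block MET8 (-1.34), CYS3 (-1.06) and STR3 (0.92) were not called (limma adjusted p = 0.0723, 0.104 and 0.128). Within benomyl itself, 7 genes rose from 1 h to 4 h and 18 fell, against 25.5% and 24.0% of all probe sets, with medians of -0.09 and -0.98 within scan days 1 and 2. Of the 25 called genes, 24 kept their direction on both days. MET30 went from 10.09 and 10.89 to 8.69 and 8.57 (-1.86 ± 0.21), CYS3 fell (-1.84 ± 0.29) and HOM3 rose (1.48 ± 0.26). The balance rested on replicate 2 of benomyl 1 h: without it 11 genes rose and 10 fell. Without replicate 1, 7 rose and 22 fell. With scan day as a block MET10 (-0.57) and STR2 (-0.66) were not called (limma adjusted p = 0.0513 and 0.0951), and MET3 (-0.47) was called lower (limma adjusted p = 0.0490).

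Cold raised the high-affinity methionine permease gene at 1 h, and SAM1 and CYS3 at both times. Against second-set control 1 h, cold for 1 h raised 8 of 36 genes and lowered 2, beside 11.7% and 8.35% of all probe sets, with a median of 0.39. MUP1 rose most, from 7.40 and 7.29 to 9.37 and 9.06 (1.87 ± 0.21, limma adjusted p = 6.53e-06). CYS3 had 10.02 and 10.38 against 11.44 and 11.46 (1.25 ± 0.29), MET8 8.09 and 8.69 against 9.63 and 9.75 (1.30 ± 0.34) and SAM1 8.66 and 8.56 against 9.44 and 9.61 (0.91 ± 0.17), and no arrays overlapped in these genes. MET2 (0.91 ± 0.20), MHT1 (0.98 ± 0.33), MMP1 (0.94 ± 0.30) and MET4 (0.82 ± 0.26) rose, and STR2 (-1.01 ± 0.26) and MET13 (-0.62 ± 0.12) fell. MET8, MET2, CYS3 and MET4 lost their calls without replicate 1 of the control (1.00, 0.63, 1.07 and 0.72), where 5 genes were called in all. Without replicate 1 or 2 of cold 1 h, MET8, MHT1, MMP1 and MET4 were not called, and 5 or 6 genes were called in all. STR2 was not called without replicate 1 of cold (-0.81) or replicate 2 of the control (-0.76). MHT1 and MMP1 were not called without either control array (0.97, 0.99, 1.06 and 0.82).

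Cold for 4 h raised 10 genes and lowered 3, against 19.4% and 16.8% of all probe sets, with a median of 0.33. SAM1 had 8.16 and 8.08 in the control and 9.40 and 9.82 in the cold (1.49 ± 0.17, limma adjusted p = 1.63e-06). STR3 had 9.16 and 9.12 against 10.49 and 10.65 (1.43 ± 0.25), MET30 8.59 and 8.61 against 9.73 and 9.75 (1.14 ± 0.21), and both transsulfuration genes toward cysteine were higher, CYS3 (1.31 ± 0.29) and CYS4 (1.10 ± 0.22). Smaller rises were those of MMP1 (0.94 ± 0.30), MET6 (0.64 ± 0.18), SAM2 (0.60 ± 0.20), MET17 (0.58 ± 0.21) and MET7 (0.50 ± 0.11). MET10 (-0.66 ± 0.21), CBF1 (-0.50 ± 0.13) and MET31 (-0.48 ± 0.17) fell. MET10, MET17 and SAM2 each lost their call without 3 or more of the 4 arrays taken singly, MET31 and MMP1 without 3 of them, and MET6 without replicate 1 of cold (0.57) or replicate 2 of the control (0.64). Altogether 7 genes were called without replicate 2 of the control. Of the meiotic markers 4 of 10 fell at 1 h of cold and 9 of 10 at 4 h, with mean signals of 7.60 and 7.77 in the cold and 9.72 and 9.82 in the control at 4 h, whose part was not tested.

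The cold medium held DMSO and its control is not described as doing so. Against the DMSO arrays of the first set, a comparison added after the data were seen, 18 of 36 genes were higher and 3 lower at cold 1 h, beside 18.5% and 19.2% of all probe sets. At cold 4 h 20 were higher and 4 lower, beside 34.5% and 26.3%. STR3 at 4 h was then 2.84, CYS3 2.08, MET30 1.90 and MET31 -1.64. Set and temperature cannot be told apart in that comparison. From 1 h to 4 h of cold MUP1 fell from 9.37 and 9.06 to 7.53 and 7.64 (-1.62 ± 0.21) and MET4 fell (-0.92 ± 0.26), and none rose (2.42% and 2.74% of all probe sets rose and fell). MET4 lost its call without either cold 1 h array (-0.97 and -0.87) or without replicate 1 of cold 4 h (-0.48). The cold effect itself differed between 1 h and 4 h in 4 genes, MUP1 (-2.26 ± 0.30), MET31 (-0.88 ± 0.24), MET13 (0.66 ± 0.17) and STR3 (1.31 ± 0.36), against 2.83% and 5% of all probe sets higher and lower. Without replicate 2 of second-set control 4 h or without replicate 1 of cold 1 h, 1 gene differed, and 2 did without either array of cold 4 h, without replicate 1 of the 4 h control or without replicate 2 of cold 1 h. With values as deposited none was higher and 3 were lower.

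**Figure D4:**
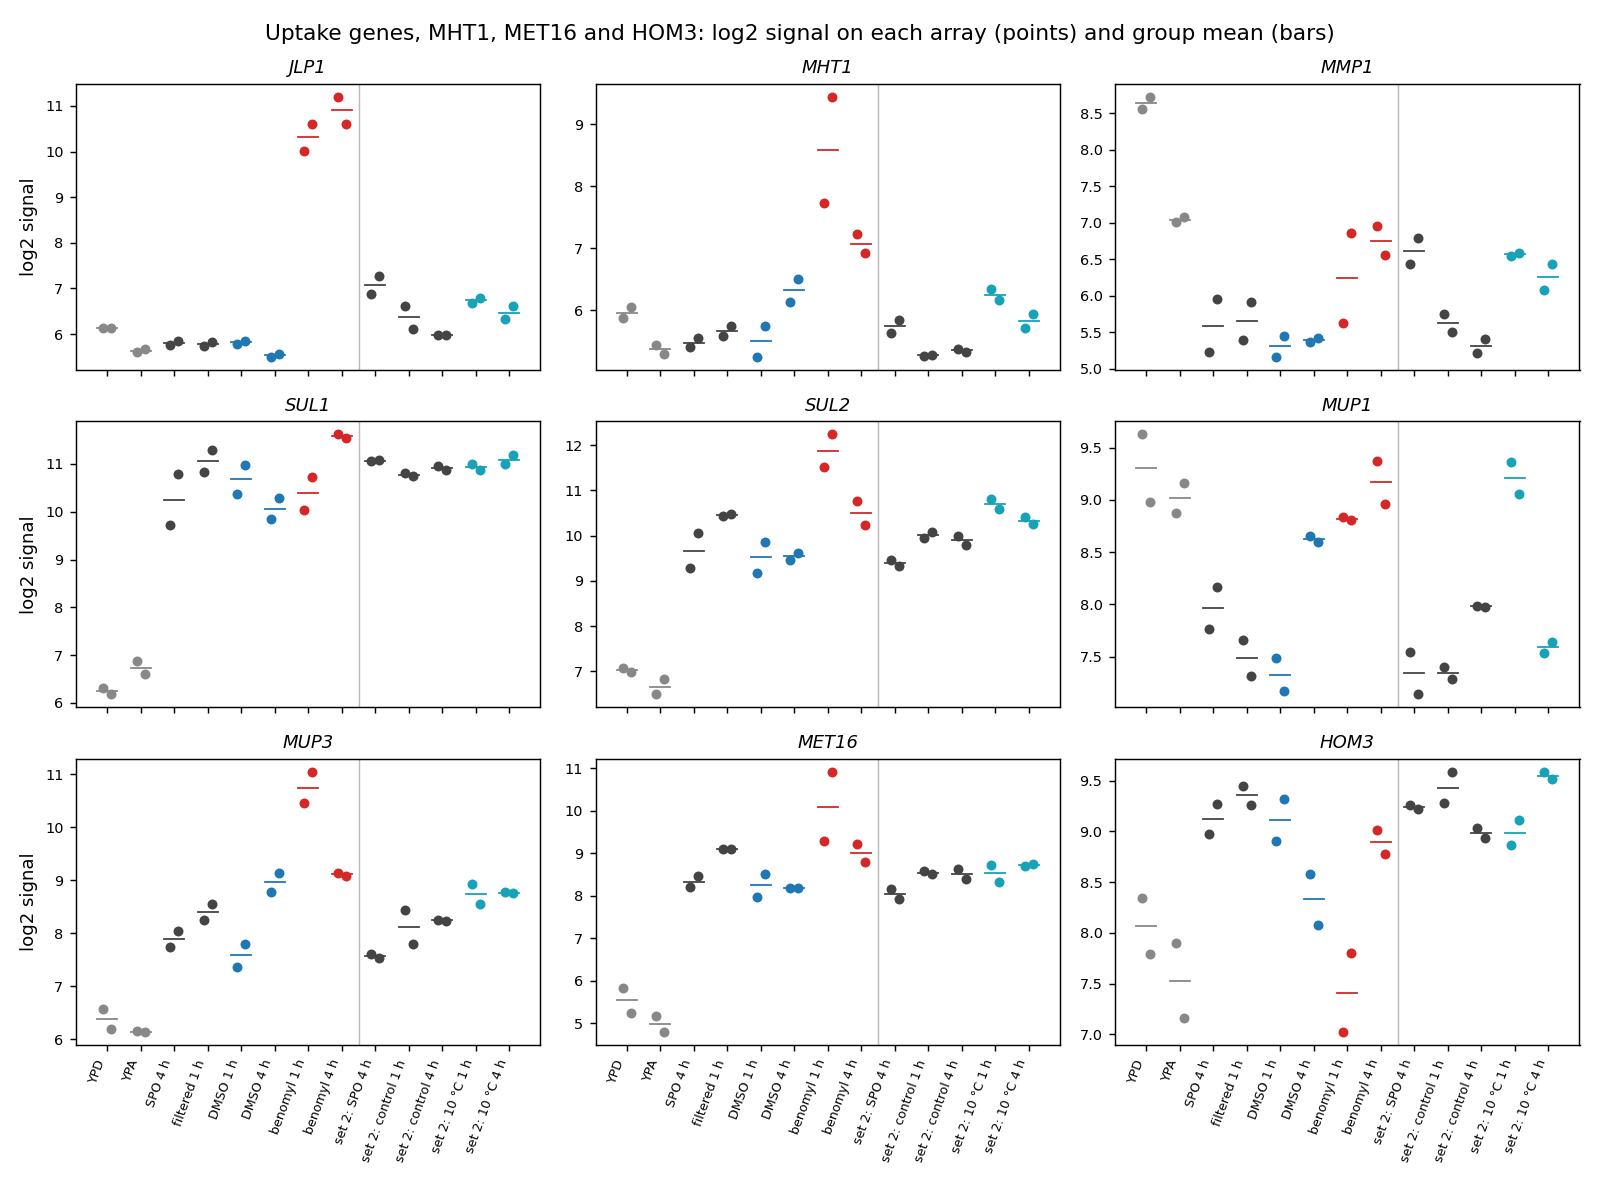
Each panel is a gene of uptake or a named enzyme, drawn as in the plot of regulators. JLP1 lies near 6 except in benomyl and, less, in the second set, MUP1 is high in YPD, YPA, DMSO 4 h, both benomyl groups and cold 1 h, and HOM3 is lowest in benomyl 1 h.

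Benomyl and cold effects were set against each other by a test of their difference, which shares no array between the effects. The treatments belong to different sets, so treatment and set cannot be told apart. The cold medium held DMSO, and its control is not described as holding it. At 1 h, the benomyl effect was the more positive in 17 of 36 genes and the more negative in 3, against 20.4% and 21.8% of all probe sets. Fewer genes differed at 1 h with array weights or in a fit of only the arrays compared. JLP1 (4.11 ± 0.29), MUP3 (2.54 ± 0.31), MET28 (2.15 ± 0.29), MET32 (2.12 ± 0.36) and MHT1 (2.11 ± 0.47) differed most. MUP1, which both treatments raised, did not differ by a call (difference -0.37 ± 0.30, limma adjusted p = 0.329), and neither did SAM1 (-0.17 ± 0.24). In JLP1 the cold change was 0.38 ± 0.21, and both cold arrays (6.69 and 6.80) lay far below the benomyl arrays. At 4 h the benomyl effect was the more positive in 10 genes and the more negative in 1, MET31 (-1.10 ± 0.24), against 13.4% and 13.4% of all probe sets. JLP1 (4.88 ± 0.29), MET10 (2.11 ± 0.30) and MET3 (1.57 ± 0.28) differed most. Without replicate 1 of benomyl 4 h, 7 genes differed.

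**Figure D5:**
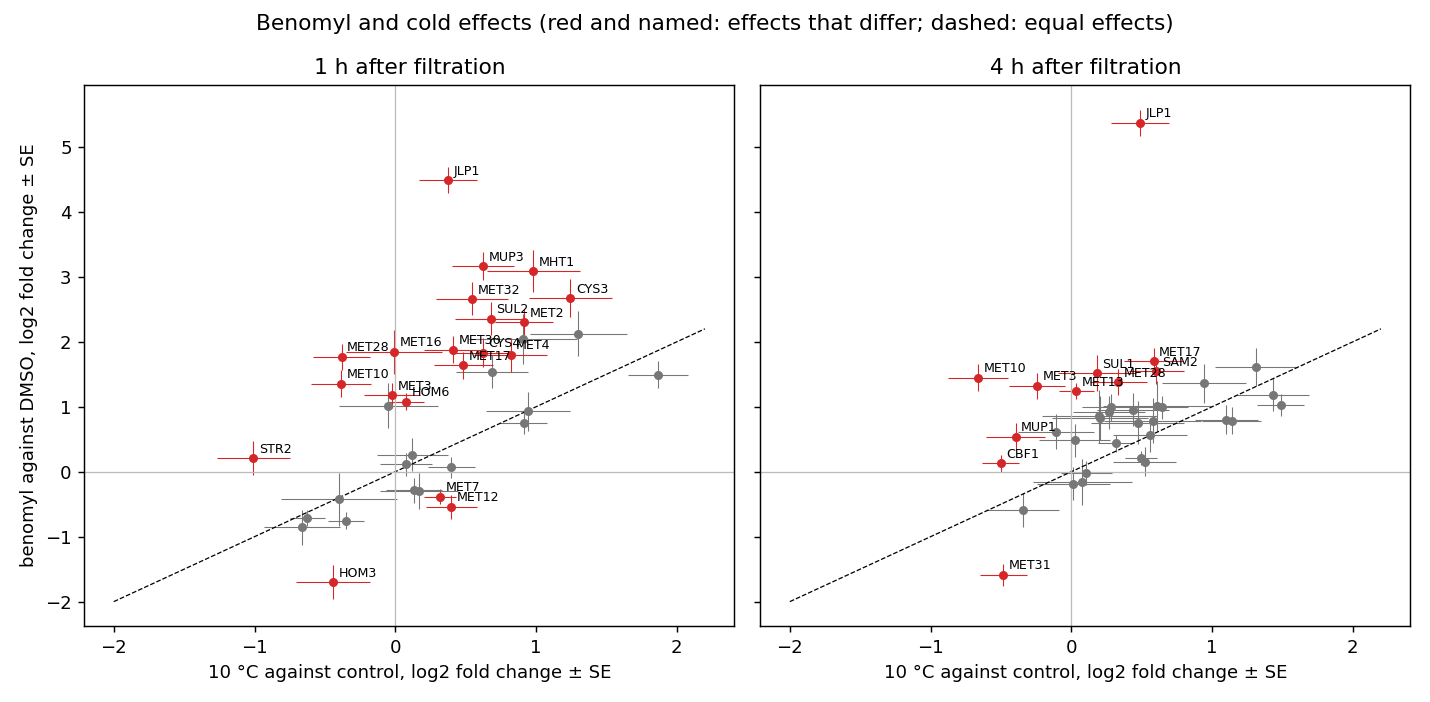
Each point is a gene, with its cold effect on the horizontal axis and its benomyl effect on the vertical axis, both log2 fold changes with the model's standard error, at 1 h (left) and 4 h (right). Red, named genes differ between treatments, and most lie above the dashed line of equal effects, JLP1 farthest. The treatments belong to different sets of arrays.

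The sets were also compared without drug or cold. At 1 h after filtration 1 of 36 genes was called between second-set control and filtered cells of the first set, JLP1, with 5.75 and 5.82 in the first set and 6.63 and 6.11 in the second (0.58 ± 0.21), beside 10.8% and 11.7% of all probe sets. With values as deposited 3 genes were lower and none higher, and the median of all probe sets was -0.19. The JLP1 call was lost without replicate 1 of either second-set control (0.32) or the filtered group (0.54), or replicate 2 of the latter (0.62). Comparisons of the sets at other times were chosen after the data were seen. At sporulation 4 h 6 genes were higher in the second set and 4 lower (11.7% and 13.5% of all probe sets), among them STR3 (1.42 ± 0.25), JLP1 (1.26 ± 0.21) and MMP1 (1.02 ± 0.30). At 4 h after filtration, against DMSO 4 h, 12 were higher and 5 lower (21.7% and 19.4%), with STR3 (1.40 ± 0.25), MET28 (1.00 ± 0.20), MET31 (-1.15 ± 0.17) and MET4 (-1.17 ± 0.26) among them. Second-set control 4 h is not described as holding DMSO, so set and solvent cannot be told apart in that comparison. Mean signals of the 10 meiotic markers were lower in the second set. At sporulation 4 h they were 7.67 to 7.69, against 8.42 to 8.47 in the first set. One hour after filtration they were 8.27 to 8.38, against 9.46 to 9.49. The part of this in the set differences was not tested.

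From the highest group down, MET31 stood at 7.28 in DMSO 4 h, 6.13 in second-set control 4 h and 6.08 in YPD, and its first step down was called (limma adjusted p = 3.28e-05) while the second was not (limma adjusted p = 0.789). MET32 stood at 10.10 in benomyl 1 h, 8.56 in benomyl 4 h and 8.08 in DMSO 4 h, with the first step called (limma adjusted p = 6.78e-05) and the second not (limma adjusted p = 0.158). JLP1 stood at 10.91 in benomyl 4 h, 10.31 in benomyl 1 h and 7.07 in second-set sporulation 4 h, and both steps were called (limma adjusted p = 0.0214 and 5.75e-10). The first of these rested on arrays that overlap, and it stood at 0.30 without replicate 1 of benomyl 4 h and at 0.30 without replicate 1 of benomyl 1 h, not called in either case.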

How the data were processed

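Signals of 9335 probe sets (60 of them controls) on 26 arrays were taken from the authors' deposited table of log2 values, between 2.09 and 15.1 with array medians from 6.64 to 7.00. How that table was made, its background correction and its normalization are not given in the sources used here, the log2 scale was inferred from the values, and the arrays did not share their quantiles. Per the file headers, instrument settings (other, non-numeric records) of the 16 first-set arrays gave the array type and scan day. Scan day 1 held replicate 1 and day 2 replicate 2 of 7 groups, and both YPD arrays shared a day. No scan day was used for the second set.

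From these values, arrays were quantile normalized, and probe sets whose highest group mean exceeded 5.44, the 25th percentile, were kept (7877; 1398 failed). limma 3.58.1 in R 4.3.3 fitted 13 group means to all 26 arrays (13 residual degrees of freedom), with eBayes and a variance trend, and p-values were adjusted by Benjamini-Hochberg over all probe sets tested. The fit was tested on simulated data. Genes were named through the platform annotation, in which 6504 probe sets had 1 gene symbol, 328 several and 2443 none, and gene order was read from RefSeq's R64 table. The 36 genes, the pathway and marker lists and the tests were chosen with earlier results of these data known. Genes named were up to 8 called genes each way with the smallest adjusted p and no overlap of arrays, all regulators and members of each role, up to 3 called genes of a list, and others where a value turned on them. The labels do not say that replicate numbers mark pairs, although 7 first-set groups share scan days by number, and same-numbered arrays correlated in their deviations from the group means from -0.15 to 0.31 in the first set (6 of 28 pairs over 0.1) and from -0.29 to 0.39 in the second (3 of 10). Alternatives were the values as deposited, median centring, other filters, no variance trend, array weights, a replicate or scan day block, fits of only the groups compared, other controls and leaving out each array. Controls without DMSO for benomyl and first-set DMSO controls for cold were added after seeing the data. YLL058W had no probe set matched here, and BDS1, FUS1 and AGA2 did not pass the filter.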

Additional observations from a re-analysis of the deposited data

Results flagged for a closer look

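The results here are differences between effects that were called in the limma model over all 7877 probe sets, given as a difference of log2 fold changes with 2 arrays in each group. They are values without an explanation, and groups of 2 arrays are too small to test any array as an outlier.

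The effect of benomyl against DMSO differed between 4 h and 1 h in 23 genes. Of all probe sets, 24.2% were more positive and 21.5% more negative at 4 h. More positive at 4 h than at 1 h were HOM3 (2.26), MET13 (1.95), SAM2 (1.84), SUL1 (1.82), HOM2 (1.47), STR3 (0.92), CBF1 (0.88), JLP1 (0.88), MET6 (0.88) and MET7 (0.59). More negative at 4 h than at 1 h were MUP3 (-3.01), MET4 (-2.39), MHT1 (-2.33), MET32 (-2.17), MET31 (-1.65), SUL2 (-1.40), MET8 (-1.34), MET2 (-1.32), MET30 (-1.09), CYS3 (-1.06), CYS4 (-1.03), MUP1 (-0.95) and HOM6 (-0.64). The effects at the 2 times share no arrays. MET13 was called lower at 1 h (-0.71 ± 0.12) and higher at 4 h (1.24 ± 0.12), while in CYS3, CYS4, MET2, MET30, SUL2, HOM6 and JLP1 both were called higher.

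The effect of 10 °C against its control differed between 4 h and 1 h in 4 genes. Of all probe sets, 2.83% were more positive and 5% more negative at 4 h. More positive at 4 h than at 1 h were STR3 (1.31) and MET13 (0.66). More negative at 4 h than at 1 h were MUP1 (-2.26) and MET31 (-0.88). MUP1 was higher in the cold at 1 h (1.87 ± 0.21) and was not called at 4 h (-0.40 ± 0.21).

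At 1 h the effect of benomyl differed from that of cold in 20 genes. Of all probe sets, 20.4% were more positive and 21.8% more negative under benomyl. More positive under benomyl than under cold were JLP1 (4.11), MUP3 (2.54), MET28 (2.15), MET32 (2.12), MHT1 (2.11), MET16 (1.86), MET10 (1.74), SUL2 (1.68), MET30 (1.47), CYS3 (1.43), MET2 (1.39), STR2 (1.21), CYS4 (1.21), MET3 (1.20), MET17 (1.15), HOM6 (1.00) and MET4 (0.98). More negative under benomyl than under cold were HOM3 (-1.26), MET12 (-0.94) and MET7 (-0.70). The benomyl and cold groups belong to different sets, so treatment and set cannot be told apart, and the cold medium held DMSO while its control is not described as holding it. STR2 stands here with a cold effect of -1.01 ± 0.26 and a benomyl effect of 0.21 ± 0.26.

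At 4 h the effect of benomyl differed from that of cold in 11 genes. Of all probe sets, 13.4% were more positive and 13.4% more negative under benomyl. More positive under benomyl than under cold were JLP1 (4.88), MET10 (2.11), MET3 (1.57), SUL1 (1.34), MET13 (1.21), MET17 (1.11), MET28 (1.05), SAM2 (0.94), MUP1 (0.93) and CBF1 (0.63). More negative under benomyl than under cold was MET31 (-1.10).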

How the results depend on the processing

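Counts of called genes among the 36 are given. The shares of all probe sets called under the same settings are not given here, so these counts do not set the 36 genes apart. Leaving out 1 array at a time moved them from 6 to 10 for YPA against YPD, 24 to 25 for sporulation 4 h against YPA, 0 to 2 for filtered against sporulation 4 h, 0 to 2 for DMSO against filtered, 11 to 17 for DMSO 4 h against 1 h, 26 to 31 for benomyl 1 h, 15 to 22 for benomyl 4 h, 18 to 29 for benomyl 4 h against 1 h, 0 to 1 for filtration and 0 to 1 for 4 h against 1 h in the second set, 5 to 10 for cold 1 h, 7 to 9 for cold 4 h, 1 to 2 for cold 4 h against 1 h, 0 to 3 between sets at 1 h, 19 to 28 for the change of the benomyl effect, 1 to 4 for that of the cold effect, 18 to 28 for benomyl against cold at 1 h and 7 to 11 at 4 h. Where a fit leaves 1 array in a group, that array is assumed to vary like the other groups. With the other settings the counts stayed within 1.5 times for YPA against YPD, sporulation 4 h against YPA, benomyl 4 h, the changes of the benomyl and cold effects and benomyl against cold at 4 h. With values as deposited 13 genes (7 higher) were called for DMSO 4 h against 1 h, 3 (none higher) between the sets at 1 h, and 0 for DMSO against filtered and for filtration in the second set. With median centring 0 were called for the latter pair and 1 for 4 h against 1 h in the second set. With no filter the counts were 0 for DMSO, for filtration in the second set and between the sets, and 1 for cold 4 h against 1 h, and with no variance trend 0 for DMSO and between the sets. The filter at the 50th percentile gave 0 between the sets. Array weights gave 7 for filtered against sporulation 4 h, 7 for DMSO, 12 for benomyl 4 h against 1 h, 0 for filtration, 0 for 4 h against 1 h in the second set and 0 between the sets, 21 for cold 4 h, 9 for cold 4 h against 1 h and 10 for benomyl against cold at 1 h. Fits on only the arrays compared gave 6 for filtered against sporulation 4 h, 0 for DMSO, 17 for benomyl 1 h, 7 for benomyl 4 h against 1 h, 0 for filtration, 1 for 4 h against 1 h in the second set, 24 for cold 4 h, 13 for cold 4 h against 1 h, 0 between the sets and 11 for benomyl against cold at 1 h. The scan day as a block gave 0 for DMSO. The first-set DMSO control gave 21 for cold 1 h and 24 for cold 4 h. Same-numbered arrays of 7 first-set groups share a scan day, and with the replicate block the counts were 0 for DMSO, for filtration in the second set and between the sets, 29 for benomyl 1 h and 21 for benomyl 4 h. The cause of these differences was not tested. Single genes that turned direction did so when a benomyl 1 h array was left out, except HOM2 at cold 4 h. SAM4 stood at 0.67 without replicate 1 and -1.52 without replicate 2 of benomyl 1 h against DMSO, at -0.80 without replicate 1 and 1.39 without replicate 2 for benomyl 4 h against 1 h, and at 1.07 without replicate 1 and -1.12 without replicate 2 for benomyl against cold. HOM2 stood at 0.54 without replicate 1 and -0.93 without replicate 2 for benomyl against cold, and MET22 at -1.59 without replicate 1 and 0.41 without replicate 2 for benomyl 4 h against 1 h. HOM2 at cold 4 h was 0.73 against the first-set DMSO control. Scaling moved the median of all probe sets by over 0.1 for sporulation 4 h against YPA (-0.04 to -0.15 with median centring), DMSO 4 h against 1 h (-0.15 to -0.04 as deposited) and the sets at 1 h (-0.02 to -0.19 as deposited). With 2 arrays a group, their number limits the precision of every value.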

Other observations

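Reducing power and sulfur-compound genes outside the 36 moved with benomyl at 1 h. The thioredoxin reductase gene TRR1 (2.97 ± 0.12) and the thioredoxin gene TRX2 (1.52 ± 0.11) rose, with 9.65 and 9.76 on the DMSO arrays and 12.53 and 12.81 on the benomyl arrays for TRR1, while TRX1, the other cytoplasmic thioredoxin gene, fell (-1.14 ± 0.17). At 4 h TRX2 (1.10 ± 0.11) and TRR1 (0.82 ± 0.12) were still higher. In methionine salvage and polyamine synthesis, MRI1, for an isomerase of the salvage route, rose at 1 h (1.33 ± 0.20) and ADI1, for its dioxygenase, was higher at 4 h (1.09 ± 0.17). SPE2, which makes the decarboxylated S-adenosylmethionine used for spermidine, fell at 1 h (-0.68 ± 0.11), and the aromatic aminotransferase gene ARO9 was lower at both times (-2.36 ± 0.20 and -1.52 ± 0.20). SAH1, lower at 1 h, was higher at 4 h (0.94 ± 0.14), as was the adenosine kinase gene ADO1 (1.41 ± 0.15).

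Under cold, 16 of 42 genes for other amino acids fell at 1 h and 1 rose (median -0.55), among them HIS4 (-1.86 ± 0.25) and LYS1 (-1.59 ± 0.22), while 8.35% of all probe sets fell and 11.7% rose. At 4 h 2 of the 42 fell and 6 rose, beside 16.8% and 19.4% of all probe sets. The cysteine transporter gene YCT1 was higher in the cold at both times (1.93 ± 0.24 and 1.39 ± 0.24), as was IRC7 (1.51 ± 0.21 and 1.69 ± 0.21), for a beta-lyase that acts on cysteine conjugates. The glycine cleavage genes GCV1 (-2.43 ± 0.20) and GCV3 (-1.28 ± 0.12) were lower at 4 h of cold. A different glycine cleavage gene, GCV2, was higher at 4 h of benomyl (1.15 ± 0.17). These are different genes in different sets, so the values do not compare the treatments.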
